A study of Mus musculus with 33 samples.

Results

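CD127hi regulatory T cells (Tregs) from the spleen of transplant-tolerant mice were compared with Tregs from the spleen of naive mice. Each group had 3 bulk RNA-Seq libraries, which were chosen by their labels and are 6 of the 33 libraries of the series. All mice were of the DEREG strain on a C57BL/6 background, in which the Foxp3 promoter drives a transgene for EGFP and the diphtheria toxin receptor. Tolerant mice had been given 4000 islet equivalents of porcine neonatal islet cell clusters (NICC) under the kidney capsule. They had also received MR-1, an antibody against CD154, at 500 µg per mouse on 4 days from day 0 to day 6, and CTLA4-Fc, a fusion protein that blocks CD28 costimulation, at 500 µg per mouse on day 0. Their cells were sorted at day 100. Naive mice had neither a transplant nor treatment. By the methods, the mice behind both splenic groups were male, and all 6 libraries had between 264 and 635 CPM of the Y-linked gene Ddx3y. Tregs were sorted as CD4+GFP+ cells, and a further gate on CD127 was set only in tolerant mice. The compared groups therefore differ in transplantation, in treatment and in the CD127 gate at once, and these cannot be told apart. Each library came from a small number of sorted cells. The study describes pools of mice, with tolerant mice from separate transplant experiments and 3 naive mice for the splenic samples. Which experiment a library came from is not stated, and the relation of mice to the naive libraries is unclear. The p-values therefore measure the spread between these libraries.

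CD127 is the alpha chain of the IL-7 receptor and is encoded by Il7r. IL-7 signals through JAK1, JAK3 and STAT5 and maintains naive and memory T cells, whereas most Tregs carry little CD127 and depend on IL-2. Tregs that have met antigen lose receptors for homing to lymphoid tissue and gain adhesion molecules, chemokine receptors and, in tissues, the IL-33 receptor ST2 (Il1rl1). KLRG1 marks such differentiated Tregs.

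Between 3312714 and 4615283 read pairs were counted on genes in the CD127hi libraries and between 2728119 and 3840011 in the naive libraries. Levels are given as CPM, counts scaled to a common library total. Where a gene had no count, up to 3 counts could have been missed, which was 0.637 to 1.01 CPM depending on the library, and this limit and the intervals below cover counting error only. Within the groups, the log2 CPM of pairs of libraries correlated with r between 0.887 and 0.932 across genes, which overlapped the range between the groups of 0.892 to 0.930. Hemoglobin transcripts were abundant in a single library, CD127hi replicate 3, with 464 CPM of Hbb-bs against at most 3.54 CPM in the other 5.

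The labels were first checked against the sorted markers. Foxp3, the transcription factor that defines Tregs, was at 464, 425 and 574 CPM in the CD127hi libraries and at 359, 468 and 353 CPM in the naive libraries. The groups overlapped, and the log2 fold change was 0.31 ± 0.55 (SE, n = 3 per group), with an adjusted p of 1 in edgeR's quasi-likelihood test. EGFP was at 127, 75.6 and 149 CPM in CD127hi and at 37.2, 42.6 and 86.4 CPM in naive Tregs. The naive CD4+GFP- cells of the same tissue had at most 8.20 CPM of Foxp3 and none of EGFP. Il7r, the transcript of the sort marker, was at 1236, 1082 and 1198 CPM in CD127hi Tregs and at 627, 581 and 422 CPM in naive Tregs. It was at 270, 303 and 360 CPM in the CD127-/lo Tregs of the same tolerant spleens, below every naive library. The log2 fold change of CD127hi over naive Tregs was 1.11 ± 0.36, and with an adjusted p of 0.628 even the gated transcript did not pass the test across all genes. Since the gate sets this difference, Il7r is given as a check and not as a result. Klrg1 was at 144, 129 and 187 CPM in CD127hi Tregs and at 4.68, 16.9 and 53.3 CPM in naive Tregs, without overlap (log2 fold change 2.62 ± 1.14, unadjusted p = 0.0230, adjusted p = 0.768). Without naive replicate 3, the log2 fold change of Klrg1 was 3.83.

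**Figure D1:**
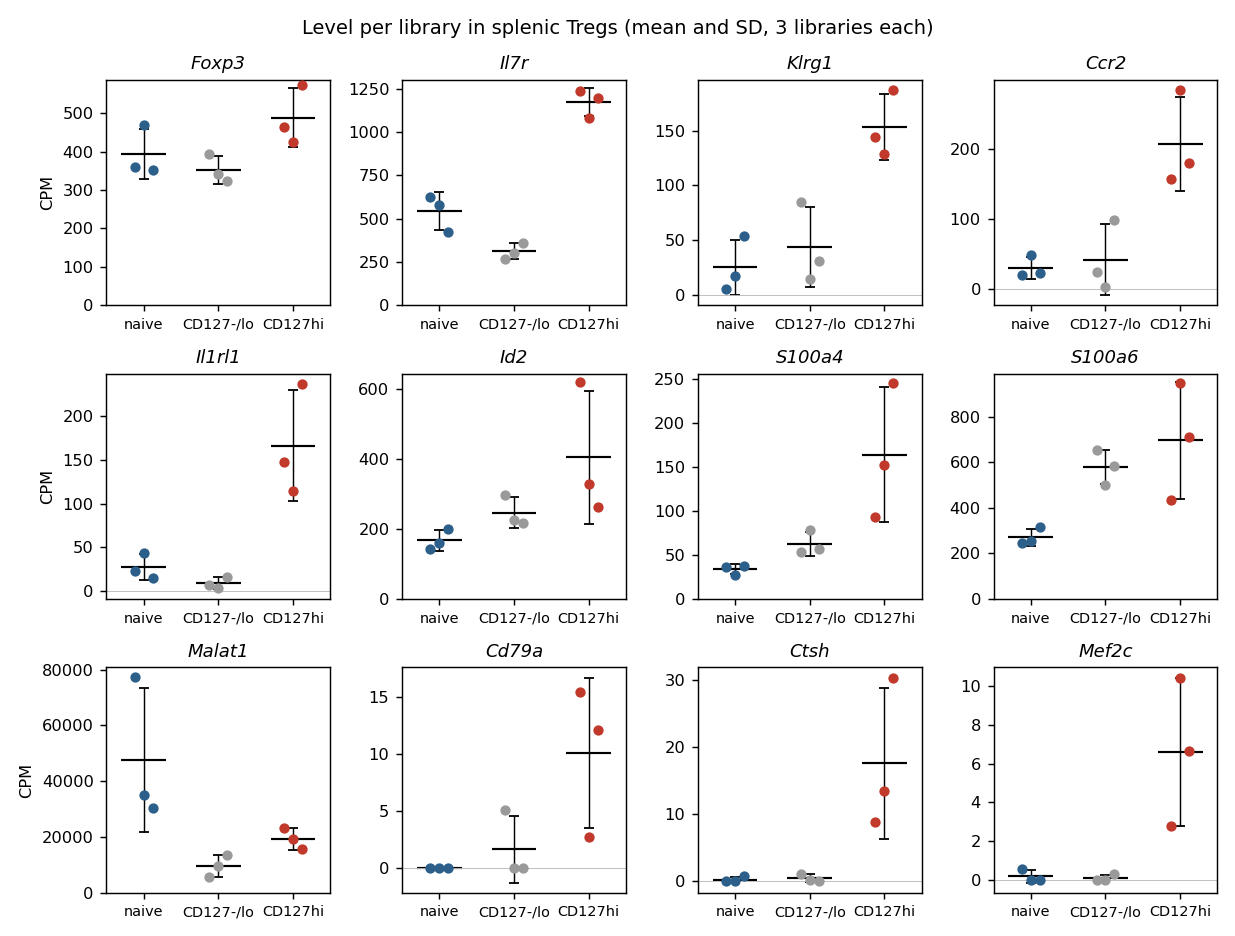
Level of 12 genes in each splenic Treg library in CPM (y axis, linear), with points for libraries and bars for the mean and SD of 3 libraries. CD127-/lo Tregs come from the tolerant spleens. Il7r, Klrg1, Ccr2 and Il1rl1 separated CD127hi Tregs from both other subsets, whereas S100a6 in CD127-/lo Tregs (578.8 CPM on average) lay above naive Tregs as well and Malat1 was lowest there (9609 CPM).

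Across all genes, 5 of 25347 genes tested passed an adjusted p of 0.05 (0.0197%), of which Cd79a, Ctsh and Mef2c rose and Malat1 and Iglc1 fell in CD127hi Tregs. At an unadjusted p under 0.05, 1290 genes differed (5.09%), of which 570 were higher (2.25%) and 720 were lower (2.84%). The second rule of the study asks for an unadjusted p under 0.01 and a log2 fold change beyond 1.5 in size. At these thresholds, 164 genes were higher (0.647%) and 195 lower (0.769%). The p-values here come from the quasi-likelihood test, whereas the study used the likelihood ratio test of edgeR. In 907 genes every CD127hi library was above every naive library (3.58%), and in 810 genes every CD127hi library was below (3.2%). The median log2 fold change of all genes was 0.00. All 5 calls were lost with the likelihood ratio test, the study's own test, and with DESeq2. They were also lost when genes needed 10 counts in 3 libraries, and in models of the 6 compared libraries or of the 24 spleen and graft libraries. The calls are described with this limit. Leaving out 1 library also ended the call of Ctsh (without CD127hi replicate 3, naive replicate 1 or naive replicate 2) and of Mef2c (without naive replicate 2 or 3). Ccr2 was the single gene called in the model of the 6 libraries (log2 fold change 2.79, adjusted p = 0.0171).

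**Figure D2:**
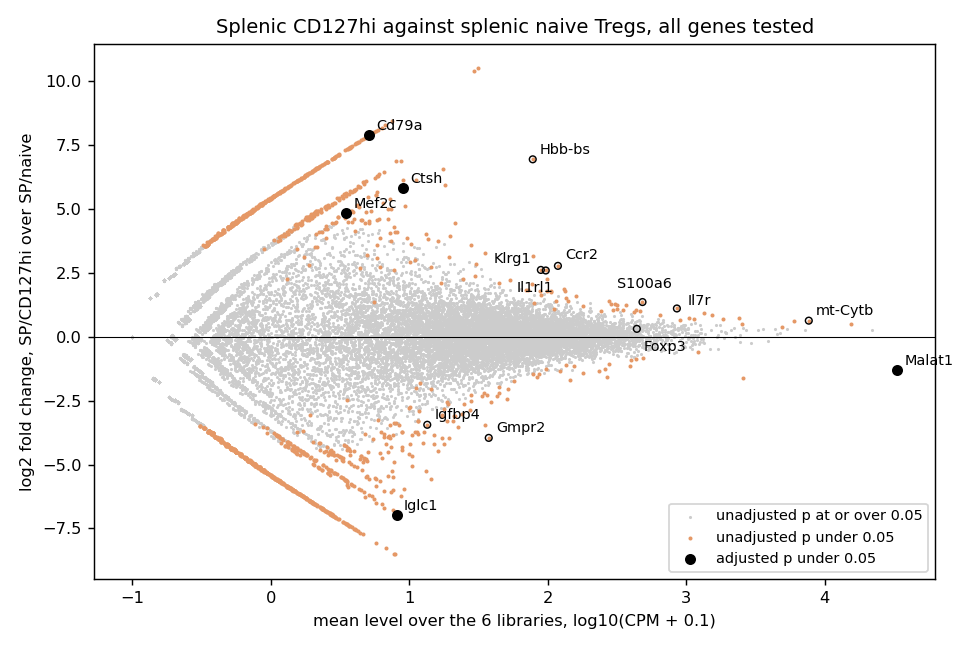
Log2 fold change of SP/CD127hi over SP/naive Tregs (y axis) against the mean level over the 6 libraries as log10(CPM + 0.1) (x axis) for the 25347 genes tested. Black points passed an adjusted p of 0.05 (5 genes) and orange points an unadjusted p of 0.05, most of which lay at low levels, and circled genes are named for orientation. The bands at the left hold genes with counts in few libraries.

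The 3 genes that rose are known from antigen-presenting cells. Cd79a (chr7:24897381-24902197 in GRCm38), the signalling chain of the B cell receptor, was at 15.5, 2.75 and 12.2 CPM in CD127hi Tregs and had no count in the naive libraries. With naive libraries set to 3 counts, its level was at least 11.7-fold higher (adjusted p = 0.00181). Ctsh (chr9:90054152-90076089), the lysosomal protease cathepsin H, was at 8.92, 13.5 and 30.4 CPM against 0, 0 and 0.758 CPM. The ratio of its counts, 191 to 3, was 58.7 after scaling to library size, with an exact 95% interval from 19.8 to 287 (adjusted p = 0.0286). Mef2c (chr13:83504034-83667080), a transcription factor of B and myeloid cells, was at 2.76, 10.4 and 6.66 CPM against 0.551, 0 and 0 CPM. Its ratio was 32.3 (95% interval 8.61 to 272, adjusted p = 0.0143). In none of the 3 genes did the groups overlap, but the levels in CD127hi Tregs were low. They amounted to 2.92%, 7.43% and 1.10% of the mean level in the CD45+CD4- cells of naive spleens, which contain B and myeloid cells. In CD127-/lo Tregs the mean levels were 1.70 CPM of Cd79a, 0.461 CPM of Ctsh and 0.0977 CPM of Mef2c.

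Malat1 (chr19:5795690-5802672), a long noncoding RNA kept in the nucleus, fell from 77263, 35033 and 30484 CPM in naive Tregs to 23208, 19264 and 15553 CPM in CD127hi Tregs. The groups did not overlap, and the log2 fold change was -1.30 ± 0.15 (adjusted p = 1.05e-11). The size of the difference depended on naive replicate 1, without which it was -0.76. The adjusted p was 0.694 with the likelihood ratio test and 0.130 in the model of the 6 libraries. CD127-/lo Tregs had 5803, 9628 and 13397 CPM, lower than either group. Malat1 took up between 3.14% and 7.44% of the counts of naive libraries and between 1.53% and 2.37% of those of CD127hi libraries. The share of read pairs outside annotated exons, which can include unspliced RNA, was 34.6%, 40.2% and 28.2% in naive and 29.1%, 33.5% and 28.8% in CD127hi libraries, and its part in the difference was not tested. The nuclear RNAs Neat1 (485, 557 and 563 against 347, 666 and 308 CPM) and Kcnq1ot1 (441, 611 and 511 against 939, 734 and 362 CPM) overlapped between the groups. Iglc1 (chr16:19061618-19062071), a constant segment of the lambda light chain, was called lower (log2 fold change -6.99, adjusted p = 0.00181) although its groups overlapped. It was at 4.41, 0 and 43.7 CPM in naive and at 0.212, 0 and 0 CPM in CD127hi Tregs, and without naive replicate 3 its adjusted p was 0.872.

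In the pathway of the sort marker, the single higher gene was Il7r itself, whose difference the gate sets, so the count is no result about the pathway. Among 18 genes of IL-7 and common gamma chain signalling, 1 was higher and 2 were lower at an unadjusted p under 0.05, with a median log2 fold change of 0.19, against 2.25% higher and 2.84% lower among all genes, and no member passed the adjusted p. Without Il7r, 0 of 17 were higher. The lower genes were Bcl2, the survival factor downstream of IL-7, and Pim2, a kinase induced by STAT5. Bcl2 was at 423, 259 and 156 CPM in CD127hi and at 528, 582 and 465 CPM in naive Tregs, and each CD127hi library was below each naive library (log2 fold change -0.91 ± 0.37, unadjusted p = 0.0158, adjusted p = 0.718). Pim2 was at 0.212, 0.306 and 2.03 CPM against 7.43, 6.09 and 27.3 CPM. Il9r, another receptor of this family, was at 56.3, 28.2 and 20.3 CPM in CD127hi Tregs and at 13.2, 3.38 and 8.33 CPM in naive Tregs, which did not overlap but missed an unadjusted p of 0.05 (0.148).

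Genes of effector and memory T cells were often higher in CD127hi Tregs. In bulk libraries, fewer cells of a type and less RNA per cell cannot be told apart. Of the 30 genes in this list, 15 were higher at an unadjusted p under 0.05 and none was lower, against 2.25% and 2.84% of all genes and 0.875% and 0.863% of the 8347 genes with a mean of at least 10 CPM. In 19 of the 30, the CD127hi libraries lay above all naive libraries, against 7.5% of those 8347 genes, and in none did they lie below (5.34%). The median log2 fold change was 0.94. Of the 15 higher genes, 6 (Adam8, Anxa1, Ctla2a, Id2, Kctd12 and Klrg1) had been named by the study from these libraries, so the list is not independent evidence of its direction. Among the 24 other members, 9 were higher and none was lower, 14 separated the groups upwards, and the median was 0.77. No member passed an adjusted p of 0.05, and the lowest was 0.192. Myeloid and dendritic markers moved with this list, with sums between 433 and 536 CPM in CD127hi and between 161 and 393 CPM in naive Tregs, and their part was not tested. The count of 15 went down to 9 when CD127hi replicate 3, naive replicate 1 or naive replicate 2 was left out and to 10 without naive replicate 3.

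The S100 genes encode small calcium-binding proteins that are abundant in migrating and memory T cells. S100a4 was at 93.8, 153 and 246 CPM in CD127hi and at 36.6, 27.4 and 37.4 CPM in naive Tregs (log2 fold change 2.28 ± 0.94, unadjusted p = 0.0160). S100a6 was at 435, 946 and 709 CPM against 245, 255 and 314 CPM, and S100a10 and S100a11 had log2 fold changes of 0.87 ± 0.29 and 1.004 ± 0.43. All 4 separated the groups and lie on chromosome 3, S100a4 and S100a6 from positions 90603771 and 90612882 and S100a10 and S100a11 from positions 93555080 and 93520488. For S100a6 and S100a10 this separation is no added result, since they had been chosen by groups that do not overlap. Other members act in adhesion and in the cytoskeleton. The intermediate filament vimentin (Vim) was at 321, 380 and 510 CPM against 197, 121 and 142 CPM. Ahnak, a large scaffold protein, was at 437, 340 and 536 CPM against 153, 224 and 161 CPM, and the integrin chain Itgb1 at 513, 210 and 484 CPM against 202, 166 and 209 CPM. Adam8, a membrane metalloprotease, was at 27.0, 58.8 and 106 CPM against 0, 9.47 and 10.1 CPM. Each of these 4 separated the groups, a condition by which Vim had been chosen.

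Id2, an inhibitor of E proteins that is needed by tissue Tregs, was at 620, 329 and 264 CPM in CD127hi and at 143, 160 and 200 CPM in naive Tregs (log2 fold change 1.27 ± 0.44, unadjusted p = 0.00393). Anxa1 and Kctd12 had the largest changes of the list at low levels. Anxa1, encoding annexin A1, was at 32.9, 0.306 and 14.5 CPM with 1 count in the naive libraries together, so 1 CD127hi library was near zero. Kctd12 was at 22.1, 0.306 and 11.9 CPM with 2 counts in the naive libraries. CD127hi replicate 2, near zero for both, also had no count of the B cell marker Ms4a1 and of H2-Ab1. Cd44, the adhesion receptor of activated T cells, was at 310, 399 and 435 CPM against 207, 271 and 180 CPM, which separated the groups without passing an unadjusted p of 0.05 (0.168).

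The sum of the whole list was as high in the CD127-/lo Tregs of the same tolerant spleens, at 12042, 9770 and 10882 CPM, as in CD127hi Tregs, at 10125, 11377 and 11488 CPM, against 6825, 5477 and 6512 CPM in naive Tregs. Both tolerant subsets thus lay above naive Tregs in this sum and overlapped each other. The median log2 fold change of the list over naive Tregs was 0.81 in CD127-/lo and 0.94 in CD127hi Tregs. Single genes differed in this respect. S100a10 was at 2791, 1829 and 2148 CPM and S100a11 at 782, 647 and 668 CPM in CD127-/lo Tregs, within or above the range of CD127hi Tregs. Lgals1, encoding galectin-1, was at 865, 787 and 896 CPM there, against 514, 605 and 559 CPM in CD127hi and 388, 273 and 394 CPM in naive Tregs. In contrast, Ahnak was at 100, 180 and 231 CPM and Myo1f, a myosin of hematopoietic cells, at 32.8, 37.5 and 50.1 CPM in CD127-/lo Tregs, close to the levels in naive Tregs, while CD127hi Tregs had 151, 186 and 158 CPM of Myo1f. The CD127-/lo comparison with naive Tregs uses the same naive libraries, so these values are given side by side only.

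Because AP-1 factors act on many genes of activated T cells, the 250 bases before the start of the 15 higher genes were searched for the AP-1 letters TGANTCA, which read the same on both strands, in RefSeq promoters of GRCm38. Sequences were found for 13 of the 15, and 2 of these held the letters, against 7.82% of 27025 genes. They are shown with the letters in capitals, S100a11 at chr3:93520246-93520495 on the plus strand with 2 matches and Ctla2a at chr13:60936626-60936875 on the minus strand with 1.
S100a11: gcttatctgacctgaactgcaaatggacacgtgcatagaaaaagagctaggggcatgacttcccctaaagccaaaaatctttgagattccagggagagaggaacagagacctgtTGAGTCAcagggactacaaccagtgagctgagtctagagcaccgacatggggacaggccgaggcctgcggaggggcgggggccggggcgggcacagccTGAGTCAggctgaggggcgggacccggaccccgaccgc
Ctla2a: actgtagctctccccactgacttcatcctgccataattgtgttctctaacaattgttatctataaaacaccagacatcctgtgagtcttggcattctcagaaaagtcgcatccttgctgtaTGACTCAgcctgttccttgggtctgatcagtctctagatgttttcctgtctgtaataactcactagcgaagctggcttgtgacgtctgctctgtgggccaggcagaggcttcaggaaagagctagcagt

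Receptors of tissue Tregs and for alarmins formed a second group. Of 22 genes, 6 were higher and 1 was lower at an unadjusted p under 0.05, with a median log2 fold change of 1.25, against 2.25% and 2.84% of all genes, and none passed the adjusted p. Of the 6 higher genes, 4 (Ccr2, Il1rl1, Il18r1 and Nebl) had been named by the study from these libraries, and among the 18 other members 2 were higher and 1 was lower. Leaving out naive replicate 1 lowered the count from 6 to 3. Myeloid and dendritic markers, with sums between 433 and 536 CPM in CD127hi and between 161 and 393 CPM in naive Tregs, moved with this list too, and Ccr2 is also expressed by myeloid cells, with 73.6, 150.3 and 149.7 CPM in the CD45+CD4- cells of naive spleens. The part of these cells was not tested. Ccr2, the receptor for CCL2 that guides cells to inflamed tissue, was at 158, 284 and 179 CPM in CD127hi Tregs and at 19.5, 48.0 and 22.98 CPM in naive Tregs (log2 fold change 2.78 ± 0.85, unadjusted p = 0.00126, adjusted p = 0.628). Its lowest CD127hi library was 158 CPM, far above the highest naive library of 48.0 CPM. Ccr2 had, however, been chosen by groups that do not overlap. Il1rl1, the IL-33 receptor ST2, was at 147, 114 and 237 CPM against 23.4, 43.6 and 15.4 CPM (2.60 ± 1.07, unadjusted p = 0.0156). It was at 7.35, 4.03 and 16.7 CPM in CD127-/lo Tregs. Il18r1, the IL-18 receptor, was at 120, 221 and 265 CPM against 44.6, 45.3 and 120.2 CPM, so that the lowest CD127hi library (120.36 CPM) was barely above the highest naive library (120.21 CPM). Its partner chain Il18rap was at 34.8, 159 and 24.03 CPM against 9.09, 15.2 and 25.5 CPM, which overlapped. Rora, a nuclear receptor of tissue Tregs, was at 404, 233 and 238 CPM against 86.2, 149 and 111 CPM and missed an unadjusted p of 0.05 (0.0787).

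The lower member was Il1r2, the decoy receptor for IL-1. It was at 40.1, 7.04 and 0.290 CPM in CD127hi and at 98.6, 60.9 and 96.7 CPM in naive Tregs (log2 fold change -2.42 ± 1.04, unadjusted p = 0.0201, adjusted p = 0.745). The size of the difference rested on the CD127hi libraries, with -4.53 without replicate 1 and -1.85 without replicate 3. CD127-/lo Tregs had 210, 225 and 69.5 CPM.

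For genes of Treg identity, of resting cells and of suppression, the counts at an unadjusted p under 0.05 were small and close to the shares among all genes, 2.25% higher and 2.84% lower, so nothing is read from them about these lists. None of the 18 genes of core Treg identity, which include Foxp3, Ikzf2, Il2ra and Ctla4, reached an unadjusted p of 0.05 in either direction, and the median log2 fold change was 0.01. Ikzf2, encoding Helios, was at 5152, 5725 and 4135 CPM in CD127hi and at 5882, 3819 and 4019 CPM in naive Tregs. Of 17 genes of resting cells and lymphoid homing, 1 was lower and none was higher, with a median of -0.15. It was Igfbp4, at 2.55, 0.918 and 3.18 CPM against 29.7, 27.4 and 16.7 CPM (-3.44 ± 1.29, unadjusted p = 0.00788). Among 15 suppressive and coinhibitory molecules, 1 was higher and 1 was lower. Fgl2, a secreted suppressor that the study had named from these libraries, was at 74.3, 160 and 257 CPM against 13.8, 91.0 and 40.2 CPM. Lag3 had no count in CD127hi Tregs and 4.68, 1.69 and 1.77 CPM in naive Tregs, and at 3 counts in each CD127hi library its level was at least 3.36-fold higher in naive Tregs. The median of this list was 1.06 and became 0.37 with genes at zero set to that limit.

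**Figure D3:**
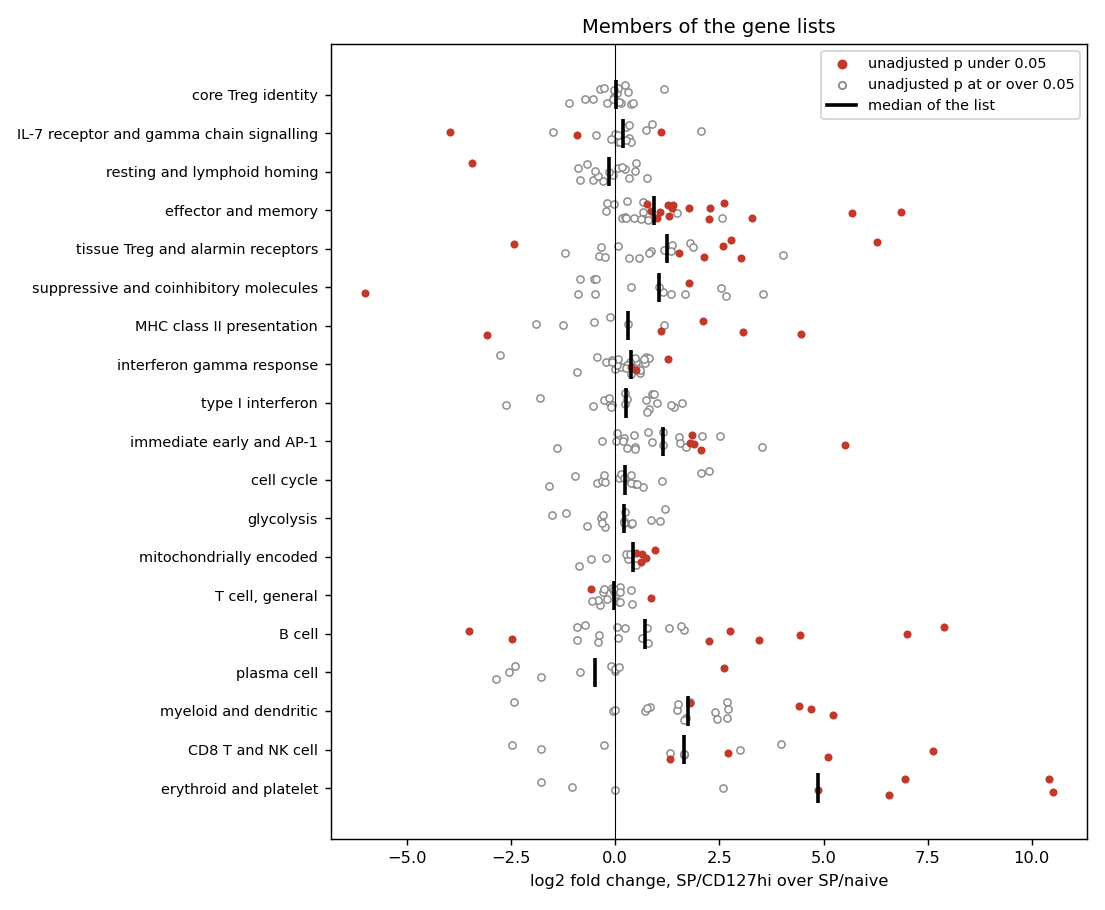
Log2 fold change of SP/CD127hi over SP/naive Tregs (x axis) for the tested members of 19 gene lists (rows, 1 point per gene, moved up or down at random within a row for legibility). Filled points had an unadjusted p under 0.05, and the vertical bar is the median of the list. The effector and memory list had 15 filled points, all above 0, while the core Treg list had none and a median of 0.01.

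Single MHC class II genes were higher, all but Cd74 at low levels, while the list as a whole overlapped between the groups. Its sum was 999.8, 717 and 551 CPM in CD127hi and 603, 499 and 963 CPM in naive Tregs. Of 11 genes tested, 6 had a log2 fold change above 0. At an unadjusted p under 0.05, 4 were higher and 1 was lower, against 2.25% and 2.84% of all genes, and none passed the adjusted p, the lowest of which was 0.307. Of the 4 higher genes, H2-Ab1 and H2-Eb1 had been named by the study from these libraries, and among the 9 other members 2 were higher and 1 was lower. The median of the list was 0.31, or 0.09 with Ciita, which had no count in naive Tregs, set to its limit. The lower gene was H2-DMb2, and 1 gene was higher in the model of the 6 libraries. Cd74, the invariant chain, was at 153, 178 and 127 CPM in CD127hi and at 42.4, 49.1 and 121.5 CPM in naive Tregs (1.10 ± 0.38, unadjusted p = 0.00436, and 1.74 without naive replicate 3). H2-Eb1 was at 21.9, 3.98 and 5.21 CPM against 2.20, 0.338 and 1.01 CPM, and H2-Ab1 at 52.9, 0 and 29.5 CPM against 14.04, 0.677 and 4.29 CPM, so that CD127hi replicate 2 had no count of H2-Ab1. The same library was the lowest for the B cell markers Ms4a1, at 64.1, 0 and 11 CPM in CD127hi Tregs, and Cd79a, at 15.5, 2.75 and 12.2 CPM. Myeloid and dendritic markers, which come from cells rich in MHC class II, summed to between 433 and 536 CPM in CD127hi and between 161 and 393 CPM in naive Tregs. The part of these cells in the MHC class II values was not tested. H2-DMa, which loads peptides, was at 41.2, 39.8 and 11.6 CPM against 73.0, 71.4 and 77.0 CPM, with each CD127hi library lower (unadjusted p = 0.0971). Of 27 genes of the interferon gamma response, 3 were higher and none was lower at an unadjusted p under 0.05, against 2.25% and 2.84% of all genes, and none passed the adjusted p. One of the 3, Ifngr1, had been named by the study from these libraries. The sum of the list was 32151, 33161 and 33457 CPM in CD127hi, 38912, 32867 and 35677 CPM in CD127-/lo and 25681, 23520 and 24097 CPM in naive Tregs. Its median log2 fold change over naive Tregs was 0.38 in CD127hi and 0.07 in CD127-/lo Tregs. Ifngr1, a chain of the interferon gamma receptor, was at 615, 463 and 481 CPM against 200, 171 and 280 CPM (1.26 ± 0.49, unadjusted p = 0.0104). B2m, the light chain of MHC class I, was at 16668, 20166 and 17583 CPM against 15016, 11377 and 12085 CPM (0.50 ± 0.15, unadjusted p = 0.000796). No gene of the type I interferon list of 20 reached an unadjusted p of 0.05, against 5.09% of all genes.

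Immediate early genes and AP-1 factors, which respond within minutes to stimulation or to handling of cells, were higher in part. Of 25 genes, 5 were higher and none was lower at an unadjusted p under 0.05, against 2.25% and 2.84% of all genes, with a median of 1.14, and none passed the adjusted p. One of the 5, Rgs2, had been named by the study from these libraries. The count went down to 2 without CD127hi replicate 1, naive replicate 1 or naive replicate 2 and to 3 without CD127hi replicate 3 or naive replicate 3. Junb was at 167, 102 and 194 CPM in CD127hi and at 51.2, 34.8 and 46.2 CPM in naive Tregs. Dusp1, a phosphatase of stress kinases, was at 90.0, 112 and 171 CPM against 33.6, 24.4 and 31.3 CPM. Tnfaip3, the NF-kB inhibitor A20, was at 314, 102 and 202 CPM against 67.5, 55.5 and 43.9 CPM. All 3 separated the groups, and in CD127-/lo Tregs, sorted from the same spleens, Junb was at 96.9, 87.6 and 63.3 CPM. The sum of the whole list was between 2234 and 3007 CPM in CD127-/lo and between 1629 and 1922 CPM in naive Tregs. The CD127-/lo sums overlapped those of CD127hi Tregs, which had 2832 CPM on average. The median log2 fold change of the list over naive Tregs was 0.90 in CD127-/lo and 1.14 in CD127hi Tregs. The rise of the list was thus not particular to CD127hi Tregs. The part of cell handling in these values was not tested.

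A part of the mitochondrially encoded transcripts was higher by small amounts. Of 12 genes tested, 9 had a log2 fold change above 0, with a median of 0.43. At an unadjusted p under 0.05, 5 were higher and none was lower, against 2.25% and 2.84% of all genes, and none passed the adjusted p, the lowest of which was 0.421. The summed level was 26503, 35753 and 32618 CPM in CD127hi and 25095, 21488 and 17587 CPM in naive Tregs. In the CD127-/lo Tregs of the tolerant spleens it was 51404, 23574 and 34073 CPM, which overlapped CD127hi Tregs. The median log2 fold change of CD127-/lo over naive Tregs was 0.44, so the rise was not particular to CD127hi Tregs. The subunit genes mt-Cytb, mt-Co1, mt-Nd5 and mt-Nd4 had log2 fold changes of 0.63 ± 0.18, 0.62 ± 0.19, 0.95 ± 0.31 and 0.73 ± 0.24, and each separated the groups. They had been chosen by groups that do not overlap, so their separation is no added result. mt-Cytb was at 7338, 10953 and 9748 CPM in CD127hi and at 7153, 5904 and 5031 CPM in naive Tregs, so its lowest CD127hi library was close to its highest naive library. With the likelihood ratio test, 0 of these genes had an unadjusted p under 0.05. None of the 18 cell cycle genes and none of the 15 glycolysis genes reached that threshold, which 5.09% of all genes did. Mki67, a marker of dividing cells, was at 23.99, 31.5 and 111 CPM against 63.0, 28.4 and 25.003 CPM.

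The lower genes with the smallest p, apart from Malat1, belonged to no list other than Igfbp4. Gmpr2, a reductase of purine metabolism, was at 0.212, 13.2 and 0.290 CPM in CD127hi and at 71.3, 87.0 and 52.8 CPM in naive Tregs (-3.96 ± 0.99, unadjusted p = 7.86e-05, adjusted p = 0.191). Without CD127hi replicate 2, the library at 13.2 CPM, the log2 fold change of Gmpr2 was -7.92 and passed (adjusted p = 8.11e-05). Prmt7, an arginine methyltransferase, was near 1 CPM in each CD127hi library (1.70, 1.22 and 1.16 CPM) and at 27.5, 32.5 and 32.8 CPM in naive Tregs (-4.46 ± 1.51, unadjusted p = 0.00335). Ldhb, a lactate dehydrogenase subunit, was at 12.3, 0 and 4.92 CPM against 86.2, 41.3 and 65.7 CPM. Rgs10, a regulator of G protein signalling, was at 157, 226 and 75.3 CPM against 384, 286 and 420 CPM. The 10 others were 2610301B20Rik, Abhd10, Mrps31, Dennd2d, Dph5, Ctsw, Dusp22, Abca1, Pkhd1l1 and Igfbp4, and the log2 fold changes of the 15 genes ranged from -1.25 to -5.56. All were chosen by groups that do not overlap.

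Markers of other cells were then examined. The counts of markers below are at an unadjusted p under 0.05, which 2.25% of all genes reached as higher and 2.84% as lower, and lists with 1 called member are close to these shares. Without the immunoglobulin genes Ighm and Ighd, the 20 other B cell markers summed to 217, 82.0 and 186 CPM in CD127hi and to 203, 124 and 157 CPM in naive Tregs, against 7386 to 12209 CPM in the CD45+CD4- cells of naive spleens. Of the 22 B cell markers, 6 were higher and 2 were lower, with a median of 0.70, or 0.15 with genes at zero set to their limit. The count of 6 fell to 3 without CD127hi replicate 1 and was 2 in the model of the 6 libraries. Spib, a transcription factor of B cells, was at 7.43, 1.53 and 7.53 CPM with no count in naive Tregs, and replicate 2 was the lowest as for Cd79a. Ms4a1, encoding CD20, was at 64.1, 0 and 11 CPM against 10.7, 0.338 and 0 CPM. Cd79b, the partner chain of Cd79a, did not follow, at 1.91, 1.22 and 56.4 CPM against 30.0, 0 and 48.0 CPM. The part of B cell markers in the rise of Cd79a, Ctsh and Mef2c was not tested. Myeloid and dendritic markers summed to between 433 and 536 CPM in CD127hi and between 161 and 393 CPM in naive Tregs, which did not overlap, and 4 of 20 were higher, or 1 without naive replicate 3. In CD127-/lo Tregs this sum was 649, 264 and 327 CPM, which overlapped both groups. Lyz2 was at 211, 144 and 55.9 CPM against 81.5, 26.4 and 10.9 CPM, and Itgam, S100a8, S100a9 and Xcr1 had no count in naive Tregs and at most 2.55 CPM in a CD127hi library. Markers of CD8 T and NK cells summed to between 156 and 253 CPM against between 99.7 and 182 CPM, with 4 of 13 higher, or 2 without naive replicate 1, and Cd8a had no count in CD127hi Tregs. Klrd1, an NK cell receptor, rested on replicate 1 (13.8 CPM) and Klre1 on replicate 3 (25.5 CPM). Of the higher markers in this list, Klrd1 and Ccl5 had been named by the study from these libraries. So had Cd36 of the myeloid list and Cd79a of the B cell list. Of 10 plasma cell markers, 1 was higher, and 5 of 9 erythroid and platelet genes were higher, none of them without CD127hi replicate 3. CD127-/lo replicate 3, from tolerant spleens as well, had 303 CPM of Hbb-bs. General T cell genes summed to between 9763 and 10763 CPM in CD127hi and between 9083 and 13616 CPM in naive Tregs, with 1 of 18 higher (Trac) and 1 lower (Cd3d).

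**Figure D4:**
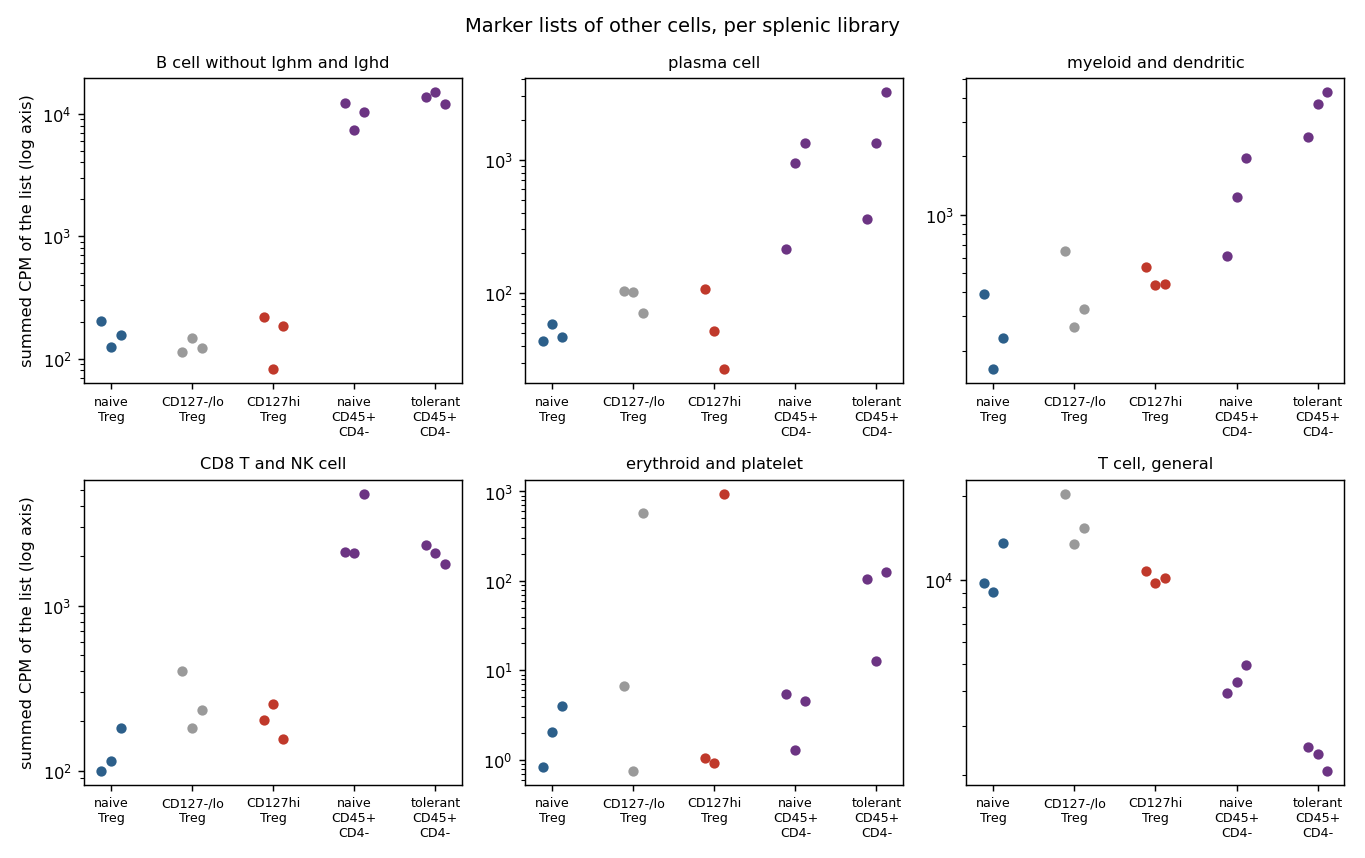
Summed level in CPM (y axis, log scale) of marker lists of other cells and of general T cell genes, 1 point per splenic library. The B cell list, without Ighm and Ighd, lay between 82.0 and 217 CPM in all Treg libraries shown and at 7386 CPM or more in CD45+CD4- cells, whereas the erythroid sum of 938 CPM in 1 CD127hi library was the highest shown for that list.

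The study named 26 genes for splenic CD127hi Tregs from these libraries, so their direction here is not independent evidence. Of these, 23 were higher at an unadjusted p under 0.05 (2.25% of all genes). In 18, the CD127hi libraries lay above all naive libraries (3.58% of all genes). Cd79a, Ctsh and Mef2c, 3 of the 26, passed the adjusted p (0.0197% of all genes). The median log2 fold change was 2.61. Serpinb1a, a protease inhibitor, was at 12.5, 54.8 and 29.8 CPM against 12.9, 10.49 and 4.04 CPM, and with Mrc1 and Tnfrsf13c it was among the 3 that did not reach an unadjusted p of 0.05.

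The draining lymph node (DLN) of the same model gave a comparison with no library in common. The study describes the tolerant mice of all subsets together, and they came from 2 independent transplant experiments. Splenic and DLN libraries of tolerant mice can thus come from the same animals, while the test of the difference between tissues treats them as separate. There, CD127hi Tregs and naive Tregs had 3 libraries each, sequenced on another instrument. By the methods, the naive mice for lymph nodes were female and the tolerant mice male, so a comparison of both tissues cannot tell apart tissue, sequencer and sex. Xist, which is expressed from the inactive X chromosome of females, was at 405, 459 and 1.24 CPM in naive and at 2.92, 1.58 and 0 CPM in CD127hi Tregs of the DLN. The Y-linked gene Ddx3y was at 2.84, 16.1 and 139 CPM in naive and at 153, 488 and 435 CPM in CD127hi Tregs. The library labelled DLN/naive replicate 3 thus goes against the stated sex, while the other two naive libraries fit it. In the DLN, 241 genes passed an adjusted p of 0.05 (0.951%), 139 higher (0.548%) and 102 lower (0.402%). Among the 241 were 3 genes of the Y chromosome (Ddx3y, Eif2s3y and Uty) and 14 of the X chromosome, and the part of sex in the other calls was not tested. Without the library labelled DLN/naive replicate 3, 232 genes passed, of which 145 were among the 241. Of the 15 genes with the smallest p among those higher in the spleen, 14 had a log2 fold change above 0 in the DLN and 4 passed there (mt-Co1, mt-Nd4, Id2 and Cd74). One of the 14 is Il7r, on which the cells of both tissues were gated (log2 fold change 0.42 in the DLN, adjusted p = 0.619), and without it 13 of 14 were above 0. Leaving out a naive DLN library ended the calls of mt-Co1 (adjusted p = 0.140 without replicate 2 and 0.0742 without replicate 3) and of mt-Nd4 (0.107 without replicate 1 and 0.141 without replicate 2), whereas Id2 and Cd74 passed without any 1 of the 3. The genes of the 15 that did not pass in the DLN were mt-Cytb, mt-Nd5, B2m, Ccr2, Il7r, S100a6, S100a10, Vim, Tnfaip3, Cd53, a tetraspanin of leukocytes, and Myadm, a membrane protein of myeloid differentiation. Among the 8347 genes with a mean of at least 10 CPM in the spleen, 45.9% were above 0 in the DLN and 1.15% passed as higher (58.5% above 0 and 32.2% below 0 among all genes tested). Id2 rose in the DLN from 57.5, 62.4 and 183 CPM to 500.3, 524 and 591 CPM, and the change of Cd74 was 2.39 on the log2 scale (adjusted p = 1.39e-05). Without the library labelled DLN/naive replicate 3, the log2 fold changes were 4.00 for Cd74 and 3.17 for Id2, the latter against 2.41 with all libraries. The single gene of the 15 below 0 in the DLN was Tnfaip3, at -1.32 ± 0.72. Of the 15 lower genes, 11 were below 0 in the DLN, against 54% of the same 8347 genes, and Malat1 was the single gene that passed with a log2 fold change of -1.47 and an adjusted p of 4.88e-15, while 1.17% of those genes passed as lower. Prmt7, Abhd10, Mrps31 and Ctsw were above 0. Ctsh and Mef2c also rose in the DLN, with Ctsh at 102, 41.8 and 4.15 CPM against no count in naive DLN Tregs. Mef2c did not pass without naive DLN replicate 2 (adjusted p = 0.0611) or 3 (0.0534). Cd79a, the third gene that rose in the spleen, overlapped between the groups in the DLN, at 44.8, 42.6 and 0 CPM in CD127hi and at 0, 5.61 and 2.48 CPM in naive Tregs (log2 fold change 3.42, adjusted p = 0.0750). Markers of other cells moved with the DLN calls, those of Id2, Cd74 and Ctsh included. The sum of B cell markers without Ighm and Ighd was between 514 and 1445 CPM in CD127hi and between 222 and 327 CPM in naive Tregs of the DLN. Myeloid and dendritic markers summed to between 1320 and 1663 CPM against between 72.2 and 674 CPM, and markers of CD8 T and NK cells to between 493 and 1228 CPM against between 1.40 and 460 CPM. None of the 3 sums overlapped between the groups, and their part in the calls was not tested. Over all 25347 genes, the log2 fold changes of spleen and DLN correlated with Pearson's r = 0.0431 and Spearman's rho = 0.0436, and over the 8307 genes with a mean of at least 10 CPM over both tissues with r = 0.103 and rho = 0.103. These are correlations across genes, which are not independent replicates.

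**Figure D5:**
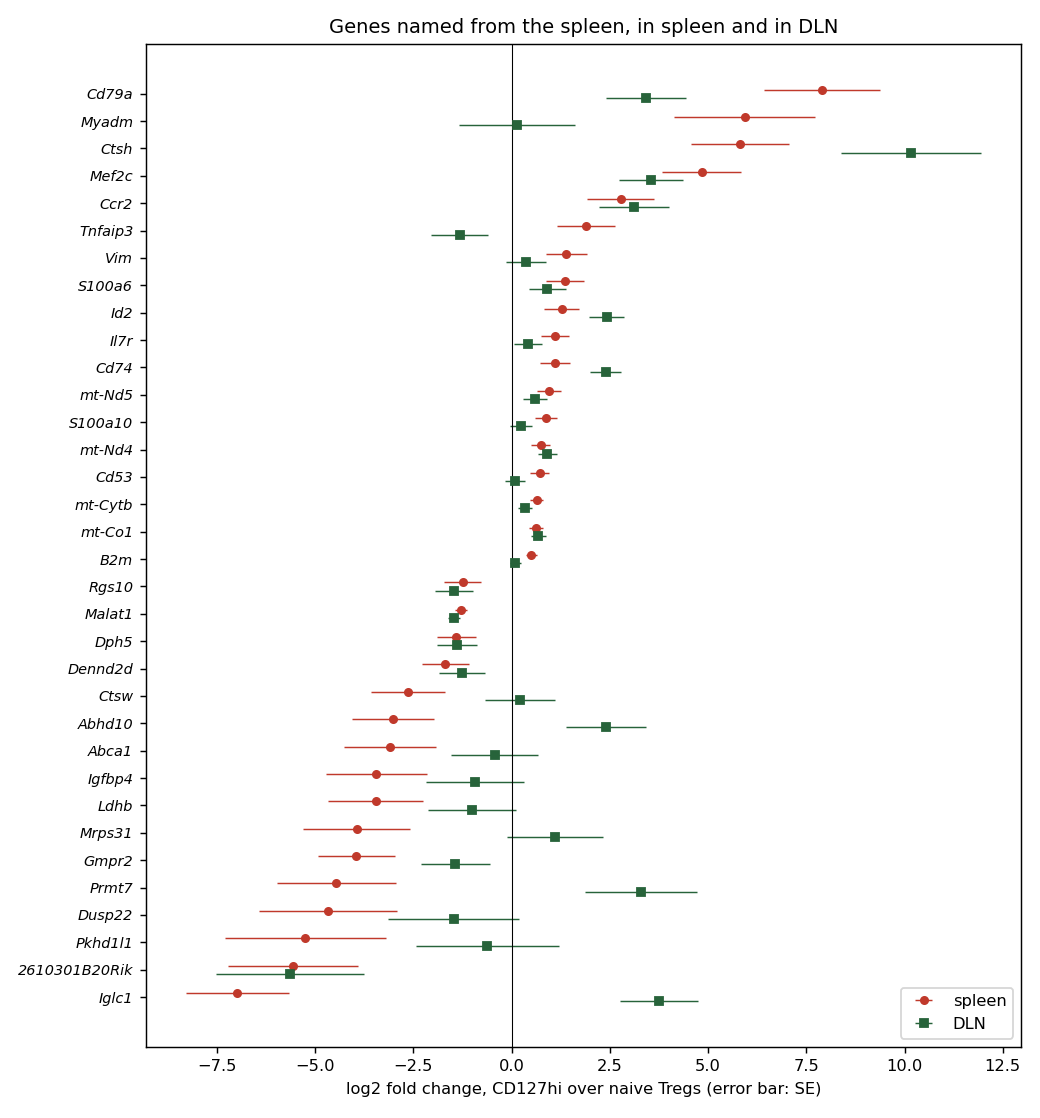
Log2 fold change of CD127hi over naive Tregs (x axis, error bars are SE) in the spleen (circles) and in the DLN (squares) for the genes that passed an adjusted p of 0.05 in the spleen and the 15 genes per direction with the smallest p. The genes were chosen by the spleen, and 14 of the 15 higher genes, Il7r as the gated gene among them, and 11 of the 15 lower genes had the same sign in the DLN.

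The difference between both effects was tested as an interaction, in which 57 genes passed (0.225%), 19 with a larger (0.075%) and 38 with a smaller value (0.15%) in the spleen, and 2010 had an unadjusted p under 0.05 (7.93%). None of the 57 lies on the Y chromosome and 2 lie on the X chromosome (Cd40lg and Rab9). Without the library labelled DLN/naive replicate 3, 87 genes passed. None of the 15 higher or 15 lower genes was among the 57. Il1r2 had opposite directions, at 94.4, 91.4 and 139 CPM in CD127hi and 0, 0 and 13.03 CPM in naive Tregs of the DLN, and the effects differed by -7.03 ± 1.55 on the log2 scale (adjusted p = 0.00981). Of the B cell markers, Cd79b, Cr2, Cd22, Fcer2a and Ly6d also passed. Cd79b was at 199, 135 and 119 CPM in CD127hi and at 0, 2.10 and 0 CPM in naive Tregs of the DLN, while the splenic groups overlapped.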

How the data were processed

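The files hold raw read counts per gene, as deposited by the authors, for 33 libraries made with SMART-Seq v4 and Nextera XT. Per the labels and methods, reads were checked with FastQC, trimmed with Trim Galore and aligned with STAR to mm10 with EGFP added. The methods name HTSeq for counting, whereas the layout is that of gene counts written by STAR. The column over both strands was used, so a gene and its antisense partner cannot be told apart. Totals of reads without a gene were left out of library sizes. Of 31054 features, 31011 had a symbol in GENCODE vM21 (GRCm38).

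The 25347 genes that reached 1 CPM in any library were fitted in R 4.3.3 with edgeR 4.0.16, with TMM factors, 1 mean per subset over all 33 libraries and quasi-likelihood F tests. P-values were adjusted by Benjamini-Hochberg over all fitted genes. CPM in the text are scaled by these factors. Standard errors were derived from the log2 fold change and the F statistic. The interaction of tissue and subset was tested in the same model. Ratios with few counts have exact binomial (Clopper-Pearson) intervals. Alternatives were the likelihood ratio test, DESeq2 1.42.0, RLE factors, other filters, fewer libraries, a replicate block and leaving out each compared library. Leaving out each naive DLN library in the DLN comparison, and lists without the genes named by the study, were added after seeing the data. Tables were made in Python 3.11.15 with pandas 2.3.3 and scipy 1.17.1.

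The members and gene lists were chosen with earlier results of these data known. Named were Foxp3, EGFP, Il7r and Klrg1, genes with an adjusted p under 0.05, up to 15 genes per direction with the smallest unadjusted p under 0.05, groups that do not overlap and a mean of at least 10 CPM, and members of the lists, with values for those of smallest p and others chosen after their values were seen. Some list members are counted but not reported here by name.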

Additional observations from a re-analysis of the deposited data

Results flagged for a closer look

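In 11 of the genes described, the CD127hi effect differed between spleen and DLN by the interaction test, with adjusted p-values of edgeR's quasi-likelihood test over all genes tested. B cell markers were 5 of these, Cr2 (3.26e-06), Cd79b (2.48e-05), Fcer2a (0.0015), Ly6d (0.00409) and Cd22 (0.0118), and Iglc1 (3.26e-06) and the plasma cell marker Mzb1 (0.00706) are immunoglobulin-related as well. In all 7 the log2 fold change was larger in the DLN. The others were Cd8b1 (0.000153), Cxcr6 (0.00118), Il1r2 (0.00981) and Serpinb1a (0.0285), also with larger values in the DLN. In naive DLN Tregs, Cr2, Fcer2a, Mzb1, Cd8b1, Cxcr6 and Serpinb1a had no count.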

How the results depend on the processing

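The 5 calls in the spleen were 5 with RLE factors, 15 without a filter, 0 with edgeR's likelihood ratio test (1365 genes at an unadjusted p under 0.05), 31 with DESeq2, 0 with at least 10 counts in at least 3 libraries (564), 1 with only the compared libraries and 0 with the 24 spleen and graft libraries (1161). Leaving out 1 library gave between 4 (without naive replicate 2) and 20 (without CD127hi replicate 2). The interaction had 57 calls, 301 with DESeq2, 2 with the stricter filter, 11 with only the compared libraries and between 39 (without naive replicate 3 of the spleen) and 121 (without CD127hi replicate 2 of the DLN) when leaving out 1 library, with 87 without naive replicate 3 of the DLN. Causes were not tested. No direction was reversed for 59 named genes under 14 alternatives. Most of these genes were chosen from the same libraries, many by groups that do not overlap. Such a choice leaves little room for a reversal, so nothing is read from this count. The fold change of 31 of these 59 moved by over 1.5 times when 1 library was left out. With the replicate number as a block, 15 genes were called in the spleen and 62 in the interaction. The numbers did not pair the libraries, since deviations from the group means correlated between -0.0319 and -0.00088 and 0 of 6 libraries correlated best with their own number. Replicates differed by more than sampling noise. Counts of list members at an unadjusted p, recomputed after seeing the data, ranged from 9 to 18 for effector and memory genes and from 2 to 9 for tissue Treg genes. Genes higher and lower at an unadjusted p under 0.05 were 570 and 720, against 282 and 444 with DESeq2, 221 and 343 with the stricter filter and 477 lower with only the compared libraries. With 3 libraries per group at this depth, genes at a few CPM rest on few counts.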
